A study of Mus musculus with 6 samples.

Results

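The genes examined here are 8 regulators of the AKT, FOXO and mTOR signaling axis, the kinase genes Akt1, Akt2 and Mtor, the transcription factor genes Foxo1, Foxo3 and Foxo4, and the genes Tsc1 and Tsc2 of the tuberous sclerosis complex. They were chosen by symbol, and all 8 of 8 have a row among the 18943 genes of the deposited table. The RNA came from muscle stem cells (MuSCs) that were purified by FACS from wild-type C57BL/6 mice aged 8 weeks and then kept in culture for 5 days. One group received the solvent DMSO, one Endothelin-3 (ET-3) and one Neurotensin (NT), and each group has 2 libraries here. Both ligands are peptides that act on G protein-coupled receptors. According to the labels the dose was 100 nM for either ligand, whereas the methods of the study give higher doses. The cells were growing in a dish after sorting, so that the DMSO group stands for cultured MuSCs and not for quiescent cells in muscle.

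AKT kinases are activated downstream of phosphoinositide 3-kinase (PI3K) by insulin and growth factors. Active AKT phosphorylates FOXO factors, which then leave the nucleus, and phosphorylates TSC2, which releases the small GTPase RHEB to activate the mTORC1 complex. In muscle mTORC1 drives protein synthesis, and nuclear FOXO factors switch on genes of protein breakdown such as Fbxo32 and Trim63. Most of this control acts on proteins through phosphorylation, which RNA-seq does not measure, so the values below are RNA levels only.

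A value is the deposited number of a gene in a library. These numbers behave as read counts scaled per library, although neither the labels nor the paper describe such a scaling. Values are given in the order DMSO replicates 1 and 2, ET-3 replicates 1 and 2, NT replicates 1 and 2. The 6 libraries held 17057 to 17678 genes with a value above 0 and summed to between 4214458 and 4600575. Genes were tested with limma on log2(value + 1), a scale that understates changes of low genes, and "rose" and "fell" are used for an adjusted p of at most 0.05 over the 13921 genes that averaged 5 or more. The 2 ET-3 libraries, and likewise the 2 NT libraries, differed by less than the sampling noise of their reads, the mean chi-square of a gene being 0.888 and 0.941, against 1.44 for the DMSO pair. Each result was therefore also obtained with either treated pair averaged and counted as 1 sample, in which the lone sample is assumed to vary like the DMSO pair. The design text speaks of triplicates and the paper of biological samples, whereas 2 libraries per group are analysed here, and how these relate to separate cultures or mice is not stated. Therefore the p-values measure only the spread between these libraries.

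The cells under either ligand differed widely from those in DMSO. Myog, a factor of muscle differentiation, had values of 1157, 1335, 31, 38, 31 and 28, whereas Pax7, the defining factor of MuSCs, had values of 857, 1070, 1754, 1730, 1653 and 1599. The other MuSC markers did not share one direction. Of 8 tested, Pax7 included, 3 rose and 3 fell under ET-3 and 3 rose and 5 fell under NT, and Cdh15, named after its values were seen, had values of 1547, 1746, 483, 462, 496 and 436. Mki67, a marker of cycling cells, had values of 1850, 2002, 2595, 2678, 2688 and 2538. All 10 of 10 genes of a muscle differentiation list fell and all 10 of 10 genes of a proliferation list rose under each ligand, and 10 and 6 of them did with the treated pairs averaged. The summed value of the differentiation list was 33590 to 36901 in DMSO and 1814 to 2327 in the treated libraries. In bulk RNA, fewer cells of a type and less RNA per cell cannot be told apart, and the part of these changes of state in the results below was not tested.

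Promoters of Akt1 and Akt2 are shown because these kinase genes moved differently. Of the 2 promoters listed for Akt1 and the 4 for Akt2, only those nearest to the 5′ end of each gene are shown. The others are not described, so the matches below hold for these windows and not for every promoter of the genes. The windows run from 250 bases before to 50 bases after the start site in RefSeq (GRCm38.p6), 5′ to 3′ on the strand of the gene. Capitals mark a match to GTAAACA, the core letters of a FOXO binding motif, on either strand. The Akt1 window is chr12:112674835-112675134 on the minus strand and the Akt2 window chr7:27591302-27591601 on the plus strand.
Akt1: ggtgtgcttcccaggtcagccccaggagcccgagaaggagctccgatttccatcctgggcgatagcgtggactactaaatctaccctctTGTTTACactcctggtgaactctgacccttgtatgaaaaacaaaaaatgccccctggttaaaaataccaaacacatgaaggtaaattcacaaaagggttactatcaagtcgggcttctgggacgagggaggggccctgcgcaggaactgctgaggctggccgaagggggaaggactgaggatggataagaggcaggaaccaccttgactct
Akt2: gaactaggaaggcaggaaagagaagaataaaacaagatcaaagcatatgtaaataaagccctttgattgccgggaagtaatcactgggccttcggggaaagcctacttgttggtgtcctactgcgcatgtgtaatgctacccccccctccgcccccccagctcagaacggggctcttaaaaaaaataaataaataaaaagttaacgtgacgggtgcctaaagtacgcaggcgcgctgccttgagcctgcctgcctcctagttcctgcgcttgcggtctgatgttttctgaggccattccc
The Akt1 window holds 1 match, on the opposite strand, and the Akt2 window holds none. A match to GTAAACA is found in 3.65% of the 32851 promoters of that table. The other motif searched, CAGCTG, which is an E-box and reads the same on both strands, has no match in either window and is found in 16.3% of all promoters. Of the 8 genes, 7 have a promoter in the table. Among these the Tsc2 window holds 1 CAGCTG match, and the remaining windows hold neither motif. These matches are descriptions of sequence and no measurement of binding.

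Under ET-3, 7 of the 8 genes fell and Akt1 rose. Under NT, 6 of the 8 fell, 0 rose, and Akt1 and Foxo4 did not pass the test. With limma 0 of the 8 were also higher under NT at an unadjusted p under 0.05, and 0 with voom weights. Over all tested genes 33.2% fell and 30.6% rose under ET-3, and 32.5% fell and 29.7% rose under NT. The median log2 fold change of the 8 genes was -0.42 with ET-3 and -0.35 with NT, against -0.01 over all tested genes in each comparison. A fall of at least 2-fold was found for 1 of the 8 genes, Akt2, under each ligand. Of all tested genes 14.9% fell and 6.62% rose at least 2-fold under ET-3, whereas under NT these shares were 13.2% and 7.30%. With the treated pairs averaged, 5 of the 8 genes fell and 0 rose under ET-3, and 3 fell and 0 rose under NT. Averaging also lowered the number of calls over all tested genes, as given in the last section, so the shares above do not serve for these counts. Both ligand comparisons share the DMSO libraries, so their similarity is not independent evidence.

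**Figure D1:**
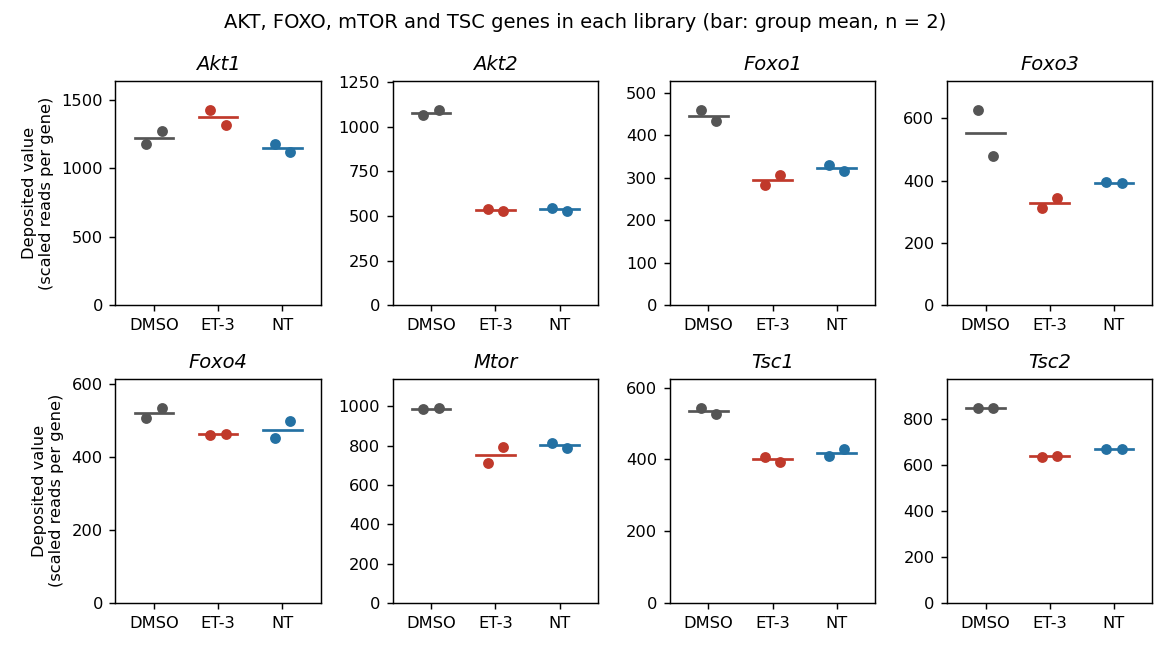
Deposited value (scaled reads per gene) of each of the 8 genes in the 6 libraries, with 1 point per library and a bar at the mean of the 2 libraries of a group. All 4 treated libraries lie below both DMSO libraries for Akt2, Foxo1, Foxo3, Mtor, Tsc1, Tsc2 and Foxo4, and the Akt1 points of ET-3 lie above those of the other groups.

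Akt2 encodes the AKT kinase that carries the insulin signal to glucose uptake in muscle and fat. The gene lies at chr7:27591552-27640826 on the plus strand of GRCm38 (ENSMUSG00000004056). Its values were 1063 and 1092 in the DMSO libraries, 541 and 526 under ET-3, and 545 and 530 under NT. All 4 treated libraries lay far below the DMSO pair, by more than the spread within any pair. The fitted level was 50.4% (ET-3) and 50.1% (NT) lower. The log2 fold change was -1.01 (SE 0.05, adjusted p = 5.54e-08, limma) under ET-3 and -1.0 (SE 0.05, adjusted p = 6.66e-08) under NT. The call was kept with the treated pairs averaged, with an adjusted p of 0.0236 for ET-3 and 0.0255 for NT, and it was past the adjusted p threshold in all 16 alternatives under each ligand. The 2-fold threshold was met only narrowly, and it was missed with libraries scaled to their totals (-0.92 under ET-3, -0.89 under NT) or to the upper quartile (-0.97 and -0.96). For comparison, 15.0% of the tested genes had a lower log2 fold change under ET-3 and 13.5% under NT. Of the 75-base windows of its exons, 6.06% also occur in the pseudogene Akt2-ps, whose own values were between 2 and 18.

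Akt1 encodes the most widely expressed AKT kinase, known for its part in growth and survival, and lies at chr12:112653821-112674884 on the minus strand (ENSMUSG00000001729). Its values were 1176, 1271, 1424, 1319, 1177 and 1121. Both ET-3 libraries lay above the DMSO and NT libraries, and the NT values overlapped those of DMSO. The log2 fold change under ET-3 was 0.16 (SE 0.06, adjusted p = 0.0251), a rise of 12.1% in the mean. This call did not hold with the pairs averaged (adjusted p = 0.214), and it passed the threshold in 8 of 16 alternatives, whose adjusted p ranged from 0.00121 to 0.231. Among the libraries left out in turn, it held only without ET-3 replicate 2, and the change was 0.11 without DMSO replicate 1 or without ET-3 replicate 1. Under NT the log2 fold change was -0.09 (SE 0.06, adjusted p = 0.186), and it was 0.02 with libraries scaled to their totals.

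Because the ratio of genes within a library does not depend on how libraries are scaled, the balance of Akt2 and Akt1 was also examined. The ratio of Akt2 to Akt1 values was 0.904 and 0.859 in DMSO, 0.38 and 0.399 in the ET-3 libraries, and 0.463 and 0.473 in the NT libraries. The 6 ratios fell into 3 separate ranges, highest in DMSO and lowest with ET-3.

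FOXO factors are forkhead transcription factors that promote cell cycle arrest, stress resistance and protein breakdown when AKT is inactive. Foxo3 has been linked in MuSCs to the maintenance of quiescence, and Foxo1 to muscle atrophy and metabolism. Foxo1 lies at chr3:52268336-52353221 on the plus strand (ENSMUSG00000044167), with values of 459, 434, 282, 306, 331 and 316. All 4 treated libraries lay below both DMSO libraries, with log2 fold changes of -0.60 (SE 0.07, adjusted p = 2.31e-05) under ET-3 and -0.46 (SE 0.07, adjusted p = 0.000153) under NT. With the pairs averaged the adjusted p was 0.0399 for ET-3 and 0.0532 for NT, which ends the NT call. The antisense gene Gm20402, with values of at most 3, covers 7.78% of the exonic bases of Foxo1.

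Foxo3 lies at chr10:42181841-42276755 on the minus strand (ENSMUSG00000048756) and had values of 626, 480, 312, 345, 396 and 391. The DMSO libraries were the least alike of any group, with a range of 26.4% of their mean, and both still lay above the treated libraries. The log2 fold change was -0.74 (SE 0.11, adjusted p = 0.000162) under ET-3 and -0.48 (SE 0.11, adjusted p = 0.0029) under NT. Neither call held with the pairs averaged, with an adjusted p of 0.131 and 0.233. The NT change rests on which DMSO library is used, at -0.29 without DMSO replicate 1 and -0.67 without DMSO replicate 2.

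Foxo4, at chrX:101254528-101260873 on the plus strand (ENSMUSG00000042903), had the smallest log2 fold changes of the 4 FOXO genes, with values of 506, 534, 461, 463, 452 and 498. All treated libraries lay below both DMSO libraries, by a margin of 8 between the nearest NT and DMSO values. Under ET-3 the log2 fold change was -0.17 (SE 0.06, adjusted p = 0.0314), and it no longer passed with libraries scaled to their totals (-0.08, adjusted p = 0.271) or to the upper quartile (adjusted p = 0.0955). The call was also lost with any 1 of the DMSO or ET-3 libraries left out, and with the pairs averaged the adjusted p was 0.158. Under NT the log2 fold change of -0.13 (SE 0.06, adjusted p = 0.083) did not pass.

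Foxo6, the fourth FOXO gene and not one of the 8, lies at chr4:120267079-120287349 on the minus strand. Its values were 107, 120, 5, 7, 9 and 7, and its log2 fold changes were -4.04 (SE 0.29, adjusted p = 1.22e-06) and -3.68 (SE 0.29, adjusted p = 2.62e-06). The counting error of each treated value of Foxo6 was 30.8% to 48.8%, so that the depth of its fall is known only roughly. Within the family Foxo4 held 47.1% of the summed value per kilobase in DMSO, 62.5% with ET-3 and 59.6% with NT, while Foxo1 held 16.2%, 16% and 16.3%. The ratio of Foxo1 to Foxo3 was 0.733 and 0.904 in DMSO, 0.904 and 0.887 in the ET-3 libraries, and 0.836 and 0.808 in the NT libraries, so that the groups overlapped. The ratio of Foxo4 to Foxo3 was 0.808 and 1.11 in DMSO, 1.48 and 1.34 in the ET-3 libraries, and 1.14 and 1.27 in the NT libraries. The DMSO ratios were the lowest in this order, without overlap.

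**Figure D2:**
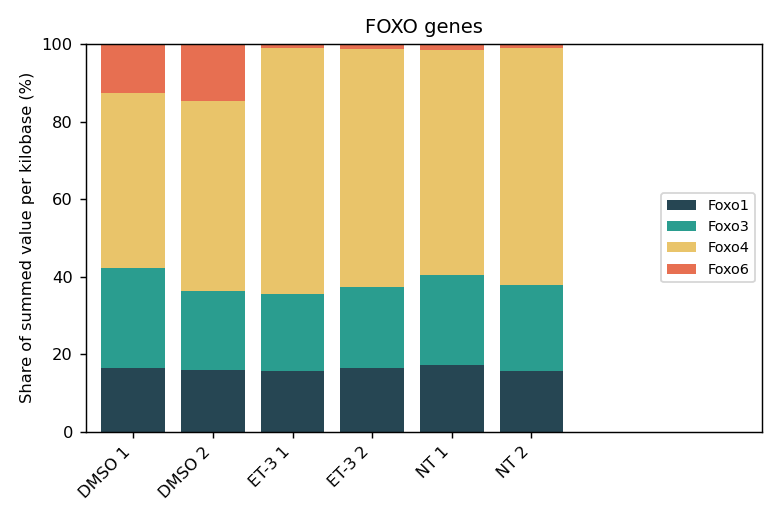
Share (%) of each of the 4 FOXO genes in their summed value per kilobase, with 1 stacked bar per library. The Foxo6 share is 12.7% and 14.7% in DMSO and at most 1.54% in the treated libraries, and the Foxo4 share is 45.1% to 49.0% in DMSO and 58.0% to 63.6% in the treated libraries.

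Mtor encodes the kinase at the centre of the complexes mTORC1 and mTORC2 and lies at chr4:148448611-148557683 on the plus strand (ENSMUSG00000028991). Its values were 985, 991, 712, 793, 815 and 788. The DMSO libraries differed by 6, and every treated library was lower. The log2 fold change was -0.39 (SE 0.06, adjusted p = 0.000149) under ET-3 and -0.30 (SE 0.06, adjusted p = 0.000941) under NT. Both calls held with the pairs averaged, with an adjusted p of 0.0359 and 0.0473.

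Tsc1 and Tsc2 encode partners in the complex that keeps RHEB, and through it mTORC1, inactive. Tsc1 lies at chr2:28641228-28691167 on the plus strand (ENSMUSG00000026812) and had values of 543, 527, 406, 393, 408 and 429. Its log2 fold change was -0.42 (SE 0.05, adjusted p = 7.79e-05) under ET-3 and -0.35 (SE 0.05, adjusted p = 0.000272) under NT. Averaging the pairs gave an adjusted p of 0.042 and 0.0522, which ends the NT call. Tsc2 lies at chr17:24595816-24632630 on the minus strand (ENSMUSG00000002496) and had values of 846, 848, 633, 641, 671 and 669. The libraries of each group were within 8 of each other, and the groups did not overlap. The log2 fold change of Tsc2 was -0.41 (SE 0.04, adjusted p = 1.93e-05) under ET-3 and -0.34 (SE 0.04, adjusted p = 8.13e-05) under NT, and both calls held with the pairs averaged (adjusted p = 0.0349 and 0.0434).

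The genes of both partners fell by like amounts, and their ratio within a library stayed between 0.608 and 0.642 in all 6 libraries. The ratio of Tsc1 to Tsc2 was 0.632 ± 0.0144 (SD, n = 2) in DMSO, 0.627 ± 0.02 with ET-3 and 0.625 ± 0.0235 with NT, so that the groups overlapped. Of the exonic bases of Tsc2, 7.20% are shared with Pkd1 on the opposite strand, whose own values were 1154 to 1308. Whether the counting used strand is unclear, since the labels name an unstranded and the methods a stranded kit.

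**Figure D3:**
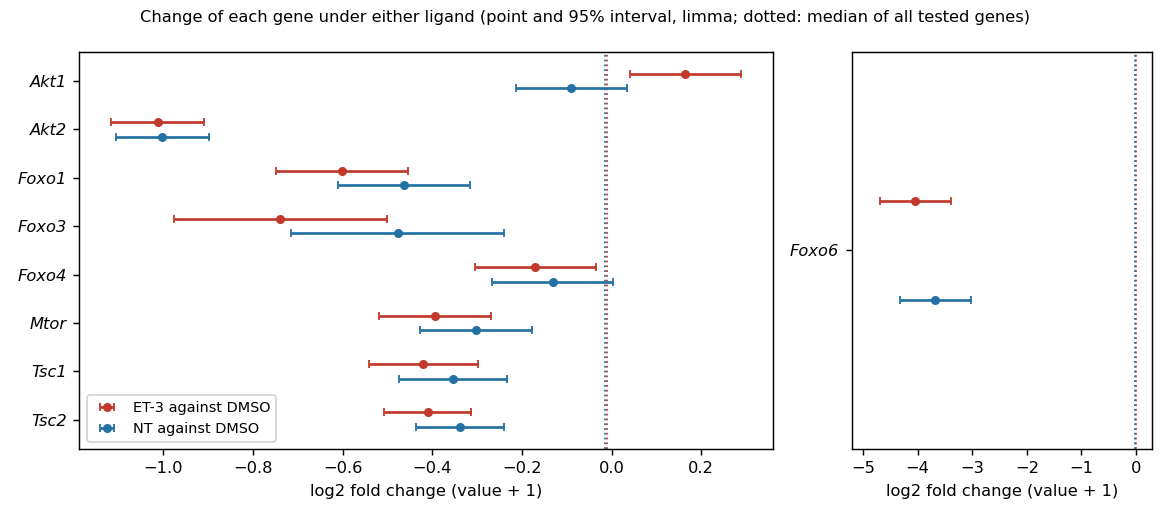
log2 fold change (value + 1) of each of the 8 genes (left) and of Foxo6 on its own scale (right), as points with 95% intervals from limma for ET-3 and NT against DMSO (2 libraries each). Dotted lines mark the median of all tested genes, -0.01 for each ligand. Akt2 lies near -1 under each ligand, and the intervals of Akt1 and Foxo4 under NT reach across 0.

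A level can be compared between genes only per length. Per kilobase of exon, the mean value in DMSO was highest for Akt1, at 298.6, followed by Akt2 at 151.1 and Foxo4 at 149.2, whose libraries overlapped. Mtor (97.7), Tsc2 (88.0) and Foxo3 (73.0) came next, with Foxo1 at 51.5 and Tsc1 at 45.2 lowest. With ET-3 the order was Akt1 at 334.7, Foxo4 at 132.6, Akt2 at 74.8, Mtor at 74.4 and Tsc2 at 66.2, then Foxo3 at 43.4, Foxo1 at 33.9 and Tsc1 at 33.8. With NT it was Akt1 at 280.4, Foxo4 at 136.3, Mtor at 79.3, Akt2 at 75.4, Tsc2 at 69.6, Foxo3 at 52.0, Foxo1 at 37.3 and Tsc1 at 35.4. The Akt2 libraries overlapped those of Mtor with ET-3 and lay just below them with NT, and Foxo1 and Tsc1 overlapped with ET-3. This order depends on the length used. With the longest transcript in place of all exons, Akt2 lay above Foxo4 in DMSO without overlap (237.1 against 164.5) and above Mtor with ET-3 (117.4 against 87.9) and NT (118.3 against 93.6). On that basis Tsc2 also stood above Mtor in each group, and Foxo1 was lowest. On either basis Akt2 lay above Foxo4 in the DMSO mean and below it in both treated groups.

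**Figure D4:**
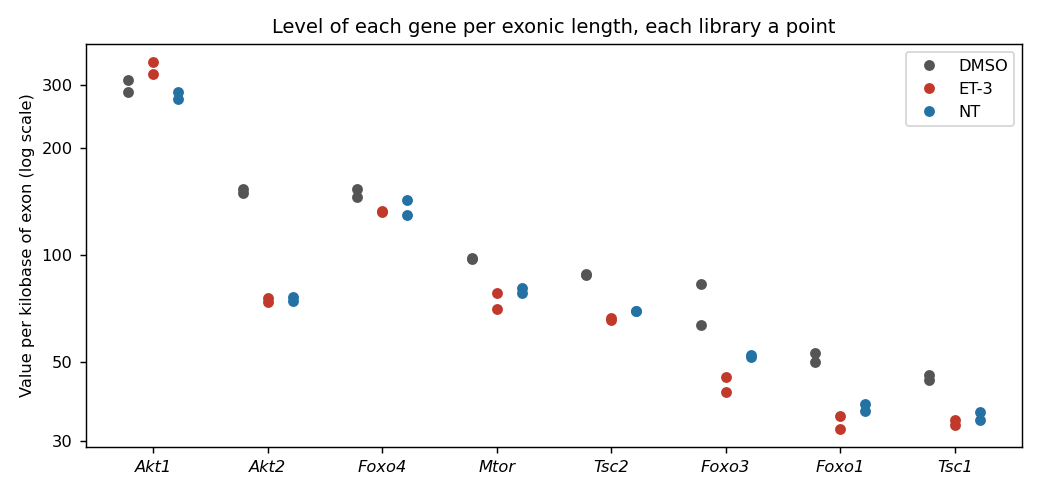
Value per kilobase of exon (log scale) of each of the 8 genes, ordered by the DMSO mean, with 1 point per library. Akt1 is highest in all 6 libraries, and the Akt2 points drop from between 149.1 and 153.1 in DMSO to between 73.8 and 76.4 in the treated libraries.

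Between the ligands, 1 of the 8 genes differed, and this was Akt1, lower with NT than with ET-3. Its log2 fold change of NT against ET-3 was -0.25 (SE 0.06, adjusted p = 0.0475). Over all tested genes 2.05% were lower and 0.647% higher with NT. The Akt1 call passed in 5 of 16 alternatives, with an adjusted p from 0.00444 to 0.712, and was lost with any 1 library left out and with the pairs averaged. For Akt2 the difference was 0.01, with a 95% interval from -0.09 to 0.12, which covers only the spread between these libraries. Foxo3 had the widest interval, from 0.02 to 0.50 around a difference of 0.26 (adjusted p = 0.209). The differences for Foxo1, Mtor, Tsc1, Tsc2 and Foxo4 were 0.14, 0.09, 0.07, 0.07 and 0.04, and none of them passed. Of the lists described below, 3 of 24 FOXO targets were lower with NT, namely Ccnd1, Gadd45a and Eif4ebp1, with log2 differences of -0.28, -0.25 and -0.27. Eif4ebp1 is also the 1 of 13 substrate genes that was called. With limma 0 genes of the PI3K, mTOR complex, TSC partner, amino acid and SGK lists were called. At an unadjusted p under 0.05, 3, 0, 3, 5 and 0 of them were higher and 0 lower. Over all 13921 tested genes 2765 were at an unadjusted p under 0.05 in either direction. Voom weights called 2 amino acid genes higher.

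Among the 10208 genes that averaged 50 or more, the 5 whose log2 values followed those of Akt2 most closely over the 6 libraries were Dapk2, Neurl1a, Col11a2, Pbxip1 and Usp2, each with a Pearson r of at least 0.9996. Dapk2, which encodes a death-associated protein kinase, had values of 677, 718, 172, 160, 173 and 164. Such likeness is common in these data, since 675 genes had an r above 0.99 with Akt2, and the points share the same libraries and the same division between DMSO and treated samples.

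The genes upstream of AKT were examined with a list of 18 for PI3K and the activation of AKT. Under each ligand 11 fell, 4 rose and 3 did not pass, and the median log2 fold change was -0.44 with ET-3 and -0.31 with NT. Of all tested genes, for comparison with this list and those below, 33.2% fell and 30.6% rose under ET-3. Under NT these shares were 32.5% and 29.7%. They hold for the fit as reported, and averaging the pairs also lowered the calls over all genes. Inpp4b, a phosphatase that removes a product of PI3K, had values of 813, 773, 11, 11, 9 and 16, with log2 fold changes of -6.05 (SE 0.25, adjusted p = 2.41e-08) and -5.93 (SE 0.25, adjusted p = 2.98e-08). The PI3K regulatory subunit gene Pik3r3 fell as well, with values of 186, 203, 52, 78, 80 and 79, as did the pseudokinase gene Trib2, with 61, 41, 8, 13, 14 and 9. Phlpp2, whose product removes phosphate from AKT, rose, with values of 140, 116, 241, 240, 257 and 235. Averaging the pairs left 5 that fell and 0 that rose under ET-3, and 3 fell and 0 rose under NT, while 2 were higher at an unadjusted p under 0.05 under each ligand.

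The subunits and inhibitors of the mTOR complexes went in both directions. Of 11 genes, 10 were tested, of which 3 rose and 2 fell under each ligand, with a median log2 fold change of 0.10 with ET-3 and 0.15 with NT. Rptor, the scaffold of mTORC1, had values of 835, 820, 959, 963, 935 and 956 and rose, with log2 fold changes of 0.22 (SE 0.04, adjusted p = 0.00132) and 0.19 (SE 0.04, adjusted p = 0.00281). Mapkap1, a subunit of mTORC2, fell, with values of 503, 481, 434, 402, 422 and 427. The cochaperone genes Tti1 and Tti2, whose products act on kinases of the mTOR type, moved in opposite directions, with log2 fold changes for ET-3 of 0.31 (Tti1) and -0.31 (Tti2), and for NT of 0.39 and -0.39. With the pairs averaged 0 of the 10 passed in either direction under either ligand, although 2 were higher and 2 lower at an unadjusted p under 0.05 for ET-3, and 3 and 1 for NT. With libraries scaled to their totals, 5 rose under ET-3, and 7 rose and 1 fell under NT. Over all 13921 tested genes that scaling gave 5105 that rose and 4073 that fell under ET-3, and 5177 and 3703 under NT.

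Among 11 genes for the third TSC subunit, RHEB and stress inputs to the complex, 5 fell and 2 rose under each ligand, with a median of -0.27 and -0.12. Prkaa2, a catalytic subunit of the energy sensor AMPK, had values of 366, 375, 107, 82, 96 and 105, with log2 fold changes of -1.97 (SE 0.13, adjusted p = 5.4e-07) and -1.87 (SE 0.13, adjusted p = 8.33e-07). The mTORC1 inhibitor genes Sesn2 and Ddit4 also fell, Sesn2 with values of 444, 526, 254, 249, 253 and 255. Ddit4l, a relative of Ddit4, rose, with values of 34, 44, 75, 75, 65 and 95. Rheb itself, named after its values were seen, had log2 fold changes of 0.01 and -0.04 and did not pass. When the pairs were averaged, 2 fell and 0 rose under each ligand, and 1 was higher at an unadjusted p under 0.05.

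Amino acid signals reach mTORC1 on the lysosome through sensors. Of 22 genes of this route, 11 fell and 5 rose under ET-3, and 11 fell and 7 rose under NT. The median was -0.16 and -0.21. The gene of the lysosomal arginine transporter Slc38a9 had values of 296, 247, 86, 118, 109 and 107 and fell, with log2 fold changes of -1.42 and -1.32. The arginine sensor gene Castor1 rose from values of 7 and 2 to between 16 and 20, whereas its paralog Castor2 fell from 647 and 667 to between 250 and 319. Rragb, one of the RAG GTPase genes, rose from 25 and 21 to between 61 and 78. Averaged pairs gave 4 that fell and 1 that rose under each ligand.

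Downstream, 13 genes for substrates of mTORC1 and AKT had 5 that rose and 5 that fell under ET-3, and 2 that rose and 6 that fell under NT. The median was -0.14 and -0.15. Eif4ebp2, a repressor of translation that mTORC1 inactivates, rose, with values of 802, 749, 1295, 1270, 1196 and 1214. The lysosome regulator gene Tfeb (59, 71, 26, 27, 31 and 30), the lipid enzyme gene Lpin1 (81, 82, 35, 30, 35 and 34) and the S6 kinase gene Rps6kb2 (312, 346, 197, 186, 199 and 191) fell. When the pairs were averaged, 1 rose and 3 fell under ET-3, and 2 rose and 2 fell under NT.

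The SGK kinases are close relatives of AKT that phosphorylate FOXO factors too, and 2 of 3 rose under each ligand. Sgk1 had values of 176, 181, 552, 530, 510 and 509, with log2 fold changes of 1.59 (SE 0.06, adjusted p = 9.49e-09) and 1.51 (SE 0.06, adjusted p = 1.49e-08). Sgk2 went from values of 3 and 0 to between 48 and 55. Sgk1 was thus higher in the 4 libraries in which Akt2 was lower, whereas Sgk3 did not pass. With the pairs averaged 1 of the 3 rose under each ligand.

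Of 24 known target genes of FOXO factors, 12 fell and 6 rose under ET-3, and 13 fell and 5 rose under NT. The median was -0.23 and -0.15. The muscle ubiquitin ligase genes Trim63 and Fbxo32 were among those that fell. Trim63 had values of 256 and 260 in DMSO and 0 in all 4 treated libraries, so that it was at least 72.2-fold lower with ET-3 and at least 100.6-fold lower with NT, against a floor of 3 reads per library. With Trim63 at that bound the median of the list is the same. Fbxo32 had values of 396, 346, 141, 185, 183 and 155, with log2 fold changes of -1.19 (SE 0.13, adjusted p = 2.72e-05) and -1.13 (SE 0.13, adjusted p = 4.16e-05). Txnip (135, 180, 15, 17, 10 and 24) and the mitophagy receptor gene Bnip3 (273, 237, 44, 44, 44 and 50) fell as well. Averaged pairs gave 8 that fell and 3 that rose under each ligand. Several of these genes also belong to the program of muscle differentiation or atrophy. The summed value of the 24 genes did not separate the groups, at 9423 to 9633 in DMSO and 9332 to 10056 in the treated libraries. That sum mixes genes of both directions and hides their changes. Among those higher in the treated libraries, Ccnd1 had values of 964, 926, 2409, 2197, 1930 and 1854. Cat had values of 353, 387, 747, 757, 668 and 674. The list was not split by whether FOXO factors activate or repress a gene.

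**Figure D5:**
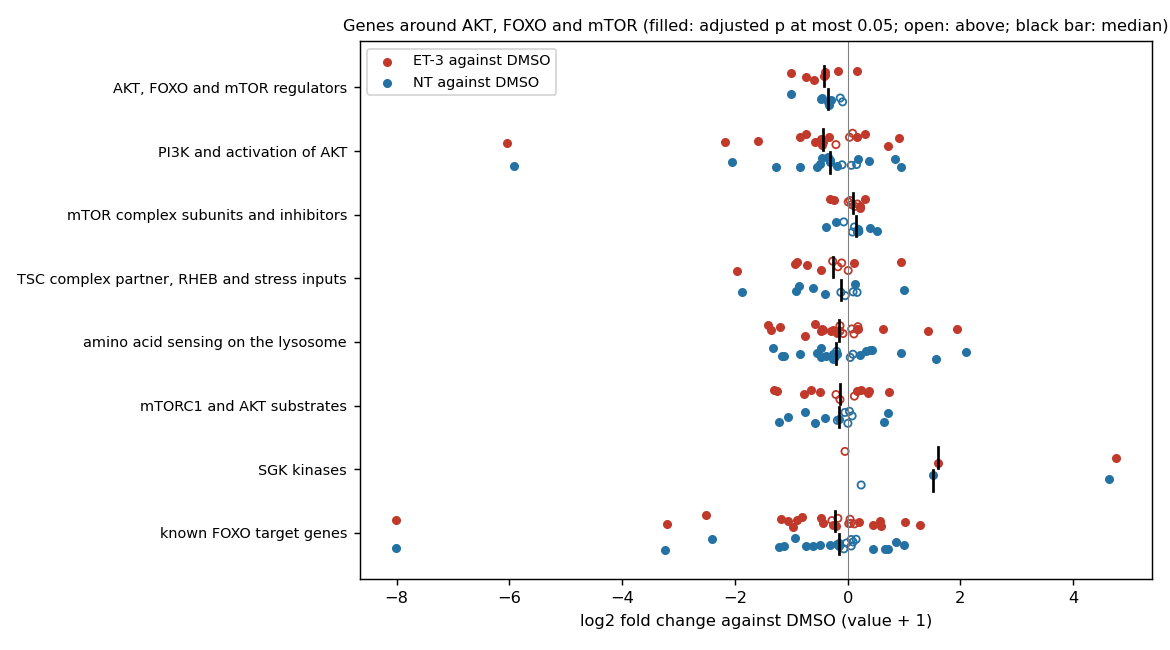
log2 fold change against DMSO (value + 1) of each tested gene in the list of 8 and in 7 lists around it, for ET-3 and NT, with filled points for an adjusted p of at most 0.05, open points above it, and a black bar at the median of a list. The 8 genes have medians of -0.42 and -0.35, the mTOR complex genes lie close to 0, and Trim63, at a fitted -8.02 that depends on the pseudocount, marks the lower end.

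The broader KEGG annotation in the deposited table, which includes several of the 8 genes, was also counted. The counts of each pathway below are to be read against those over all 13921 tested genes in the same setting. As reported, 33.2% fell and 30.6% rose under ET-3, and 32.5% fell and 29.7% rose under NT. With library totals, 4073 genes fell and 5105 rose under ET-3, and 3703 fell and 5177 rose under NT. With the pairs averaged the calls over all genes were fewer too, and they are given in the last section. Of 133 tested genes of the mTOR signaling pathway, 63 fell and 29 rose under ET-3, against 67 and 25 under NT, and the median log2 fold change was -0.14 and -0.19. Prkcb, a protein kinase C gene, rose from values of 6 and 3 to between 101 and 127, while Wnt4 fell from 115 and 94 to between 7 and 8. Averaging left calls for fewer genes, of which 29 fell and 8 rose under ET-3, and 25 fell and 6 rose under NT. With library totals, 54 fell and 42 rose under ET-3, and 50 fell and 39 rose under NT.

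In the FoxO signaling pathway 44 of 113 tested genes fell and 38 rose under ET-3, and 46 fell and 35 rose under NT. The median was -0.05 and -0.09. Prkag3, the AMPK subunit gene of fast muscle, had values of 618, 634, 12, 10, 11 and 12, and the glucose transporter gene Slc2a4 had 148, 92, 8, 4, 5 and 5. Both fell, whereas the stress kinase gene Mapk13 rose from 4 and 7 to between 245 and 294. When the pairs were averaged, 30 fell and 15 rose under ET-3, and 25 fell and 14 rose under NT. Scaling to library totals turned the balance. It gave 40 that fell and 46 that rose under ET-3, and 36 that fell and 46 that rose under NT. The balance over all tested genes turned as well.

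In the PI3K-Akt signaling pathway, which also holds many ligands and receptors, 85 of 243 tested genes fell and 93 rose under ET-3, and 90 fell and 77 rose under NT. The median was 0.05 and -0.06. The growth factor gene Fgf21 fell from values of 433 and 400 to between 2 and 5, and the integrin gene Itga4 from 541 and 487 to between 7 and 14. Another integrin gene, Itgb7, rose from 2 and 0 to between 54 and 86. With the pairs averaged 56 fell and 31 rose under ET-3, and 48 fell and 24 rose under NT. Scaling to library totals gave 80 that fell and 112 that rose under ET-3. Under NT it turned the balance to 75 that fell and 102 that rose. Over all tested genes this scaling also left more that rose than fell.

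Markers of other cells were also counted. The summed value of 6 smooth muscle and pericyte markers was 3571 to 4196 in DMSO and 1026 to 1205 in the treated libraries. Most of the DMSO sum came from Notch3, with values of 1397, 1773, 305, 284, 409 and 353, and Acta2, with 1216, 1382, 280, 272, 281 and 251. Rgs5 had values of 117, 150, 4, 2, 3 and 5, and Myh11 had 4, 1, 0, 0, 2 and 2. Whether this RNA came from such cells was not tested. Lists for endothelial cells, fibroadipogenic cells and macrophages had low sums, with a row for 4, 4 and 3 of their 6 genes, and each sum also separated DMSO from the treated libraries. The endothelial sum was 24 and 11 in DMSO and 37 to 43 in the treated libraries, and the macrophage sum 25 and 32 against 51 to 77. In the macrophage list Cd14 had values of 4, 5, 32, 34, 32 and 24, whereas Csf1r had 6, 13, 4, 5, 4 and 5. The fibroadipogenic sum was 136 and 147 in DMSO and 64 to 90 in the treated libraries, but its members disagreed. Col15a1 had values of 80, 82, 1, 1, 0 and 1, whereas Ly6a had 27, 18, 37, 43, 38 and 52. Of 3 fibroadipogenic genes tested, 1 rose and 1 fell under ET-3, and 2 rose and 1 fell under NT. The part of these cells in the changes of the 8 genes was not tested.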

How the data were processed

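RNA-seq reads of 6 libraries were used, 2 each for DMSO, ET-3 and NT, grouped by their labels. According to the methods, the authors trimmed single-end reads, aligned them to mm10 (GRCm38) with STAR and counted exon reads per gene with featureCounts, leaving out reads on several genes or regions. The submitters' processing notes name STAR 2.7.7a, featureCounts 1.6.5, Trimmomatic 0.38 and DESeq2 1.30.0. The deposited values are a read signal of whole numbers. From their frequencies they were inferred to be counts rescaled by a single factor in each library and then rounded. In DMSO replicate 2 and both ET-3 libraries, 64, 79 and 42 of 497 whole numbers examined are values that rounding does not reach, and 0, 7 and 5 genes lay at them. Elsewhere the factor rests on the frequency of each whole number. Dividing by these factors gave 3629013 to 5396233 reads on genes, and a counting error of 2.64% to 6.50% per value of the 8 genes, which covers counting only.

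Values plus a pseudocount of 1 were log2 transformed, 5022 genes with a mean under 5 were left out, and all 6 libraries entered 1 limma 3.58.1 fit (R 4.3.3, eBayes with trend, no block) with 3 contrasts and Benjamini-Hochberg adjustment over 13921 genes. A count model was not used because the values appear to be scaled. Genes were named by rule: the 8 genes, Foxo6, up to 4 genes per list with the largest mean absolute change among those past the threshold under both ligands, the 5 genes most like Akt2, and Myog, Mki67 and Pax7. The 8 genes and the lists were chosen with earlier results of these data known, and some genes of the rule and the lists are not reported here. KEGG terms came from the deposited table. Positions and exonic lengths were those of GENCODE M21, which matched 18920 genes by identifier. In data simulated for ET-3 against DMSO, 200 changed genes were recovered in 4.5%, 46.5% and 79.5% of cases at 1.25-, 1.5- and 2-fold. The simulation assumed a spread and changed only these 200 genes, whereas 8873 genes were called in the real comparison. Its adjusted threshold is therefore stricter, and these rates do not give the sensitivity of the reported fit. Alternatives covered scaling, filter, pseudocount, voom weights, a replicate block, 2-group fits, averaged treated pairs, libraries left out in turn and a 2-fold threshold. Python 3.11.15, pandas 2.3.3 and matplotlib 3.10.9 were used for tables and plots.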

Additional observations from a re-analysis of the deposited data

Results flagged for a closer look

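The difference of Akt1 between the ligands was marked because its effect differed between ET-3 and NT in a direct test. The log2 fold change of NT against ET-3 was -0.25 (SE 0.06, adjusted p = 0.0475, limma), with values of 1424 and 1319 for ET-3 and 1177 and 1121 for NT. Akt1 was lower in 2 of 2 NT libraries than in either ET-3 library. Groups of 2 libraries were too small for a search for single libraries that stand apart.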

How the results depend on the processing

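The direction of every call among the 8 genes was kept in all alternatives run. Under ET-3 the number of the 8 that rose was 0 instead of 1 without the filter, with treated pairs averaged, in the fit of only the 2 groups and with the 2-fold threshold, and 0 to 1 with a library left out. With the 2-fold threshold 1 gene fell under ET-3 and 1 under NT, and 3 fell under NT with pairs averaged. In NT against ET-3 the number of the 8 that were lower was 0 without the filter, with pseudocount 0.5, with the replicate block, with pairs averaged, with only the 2 groups, with the 2-fold threshold and with a library left out (0 to 0). Over all genes, that comparison then gave 0 calls by limma without the filter, with the block, with pairs averaged and with only the 2 groups, with 3110, 2628, 652 and 2874 genes at an unadjusted p under 0.05, against 90 higher and 285 lower as reported, and 245 higher and 651 lower with voom weights. With any library left out it also gave 0, with 1452 to 2883 genes at an unadjusted p under 0.05. The cause was not tested. Foxo4 passed under NT only without NT replicate 2 (-0.20, adjusted p = 0.0458).

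Scaling to library totals moved the median of all genes by 0.09 under ET-3 and 0.11 under NT and gave 5177 genes higher and 3703 lower under NT, against 4131 and 4528 as reported. Relative to the median of all genes, Akt1 stood at 0.17 and 0.18 under ET-3 and at -0.08 and -0.07 under NT with the deposited and the total scaling, and Foxo4 at -0.16 with either under ET-3. With pairs averaged 1467 genes rose and 2530 fell under ET-3, and 1275 and 2182 under NT, against 4257 and 4616, and 4131 and 4528, as reported. Of the 44 counts for the other lists, 35 moved by over 1.5 times with pairs averaged, an alternative added for these lists after the data were seen, and 4 with library totals. The correlations of deviations between libraries of the same replicate number were -0.01, -0.08 and 0.02. They cannot decide whether these numbers pair the libraries, because the treated pairs differed by no more than sampling noise. With the replicate block Akt1 in NT against ET-3 had a log2 fold change of -0.25 (adjusted p = 0.079, limma), while no other call among the 8 changed.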
